A study of Mus musculus with 4 samples.

Results

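The genes described here carry or control the movement of ions, water, acid and base and a few solutes across the epithelium of the mouse colon. They were chosen by name, as 44 listed genes, and each was read from its brightest probe set (highest mean of the 4 arrays) among those annotated with a single gene symbol. Of these genes 43 had such a probe set, among 18194 named genes on the array, and Slc4a7 had none. By their known roles 18 were placed in an absorptive class, 10 in a secretory class and 16, which serve both or neither, in a shared class. Members and classes were chosen with earlier results of these data known, so the contrast between classes describes the data only.

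Expression was profiled on 4 arrays, 1 per group, from the colon of male mice. GFPlow cells, labelled as proliferating, and GFPhigh cells, labelled as non-proliferating, were sorted from crypts of normal colon of H2B-GFP mice, in which a doxycycline-controlled histone fused to green fluorescent protein is diluted at each division. Both came after 7 days of doxycycline labelling and 2 days without it. The Dox plus crypts came from mice with a doxycycline-inducible β-catenin gene that drank doxycycline for 5 days (2.0 mg/ml), and the Dox minus crypts from untreated mice of the same genotype. Doxycycline itself and the induced β-catenin therefore cannot be told apart in the second pair. The sources used here do not give the promoter that drives each transgene, the age and strain of the mice, or how many mice each array stands for.

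The colon takes up sodium and chloride through exchangers and channels in the lumen-facing membrane, and water follows. Short-chain fatty acids made by bacteria enter through transporters of their own, and carbonic anhydrases supply the protons and bicarbonate that the exchangers trade. Fluid secretion runs the other way: chloride enters the cell at its base, leaves through channels at the lumen, and potassium channels keep the driving force. In the textbook picture absorption belongs mainly to mature surface colonocytes and secretion mainly to cells of the crypt, while the sodium pump at the base of the cell powers both, and aldosterone raises sodium uptake in the distal colon.

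Values are log2 expression values, so a difference of 1 is a 2-fold change. A gene counted as measured in a pair when at least 1 of its arrays read 5 or more, since lower values mostly reflect the background model, and values under this floor were set to it. With 1 array per group no difference has a replicate check and no test could be run, so all statements below describe these arrays. Of all probe sets, 37.6% to 38.7% reached the floor on each array, and values correlated at Pearson r = 0.985 within each pair and 0.930 to 0.941 across pairs. Epithelial markers were present, with all 12 goblet cell genes and at least 24 of 25 colonocyte genes at or above the floor on every array. These lists were not chosen to tell colon from other parts of the gut, so that part of the label was not tested. In all 4 arrays these are mixtures of cells, so fewer cells of a type and less RNA per cell cannot be told apart.

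Proliferating cells had lower values of absorptive genes and higher values of most secretory genes than non-proliferating cells. In the absorptive class 14 genes were measured. Their median difference was -0.96, GFPlow being at least 2-fold lower than GFPhigh for 6 and at least 2-fold higher for 0, and 13 were below 0. Among all 9381 measured genes 4.30% were at least 2-fold lower, 8.81% at least 2-fold higher, 46.8% below 0 and 53.2% above, and the median was 0.04. Of 10 measured secretory genes, 5 were at least 2-fold higher and 1 lower, 7 were above 0, and the median was 0.995. The absorptive minus the secretory median was -1.96, and in 119 of the 140 possible pairings of an absorptive with a secretory gene (85.0%) the absorptive gene had the lower difference.

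Genes of sodium-proton exchange at the lumen were lower in GFPlow. Slc9a2, a lumen-facing sodium-proton exchanger, read 10.69 in GFPlow and 11.85 in GFPhigh, a difference of -1.15 (2.22-fold). Slc9a3, the second such exchanger and a main route of sodium uptake in gut, read 11.53 in GFPlow and 12.56 in GFPhigh, a difference of -1.03, and its other probe set, only just above the floor, gave -0.33, so that the mean of both was -0.68. Slc26a3, which swaps luminal chloride for bicarbonate and is mutated in human congenital chloride diarrhoea, read 13.50 in GFPlow and 14.30 in GFPhigh, a difference of -0.80, and its 4 measured probe sets ran from -1.89 to -0.61. The scaffold protein gene Slc9a3r1, which tethers exchangers and channels to the cytoskeleton, differed by -0.65, with probe sets from -1.10 to -0.65. All 4 measured genes of sodium and chloride uptake thus pointed the same way. Slc26a6, another anion exchanger, was under the floor on all arrays.

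Of the epithelial sodium channel, the aldosterone-controlled route of sodium uptake, the α subunit gene Scnn1a alone was measured. It read 8.48 in GFPlow and 9.64 in GFPhigh, a difference of -1.15. The β and γ subunit genes Scnn1b and Scnn1g read between 1.88 and 4.19 on all arrays, all under the floor, so the complete channel could not be followed.

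Among genes of solute uptake the sodium-phosphate cotransporter Slc34a2 differed most of all absorptive genes, with 6.62 in GFPlow and 9.05 in GFPhigh (-2.44, 5.42-fold). Trpm6, the channel for magnesium uptake, read 12.22 in GFPlow and 13.13 in GFPhigh, a difference of -0.91, and its second probe set gave -1.48. Slc51b, one partner of the basolateral bile acid exporter, read 8.99 in GFPlow and 10.03 in GFPhigh (-1.04). Its partner Slc51a was under the floor in both sorted populations, at 2.50 in GFPlow and 2.51 in GFPhigh, although it read 9.10 in Dox plus crypts and 9.92 in Dox minus crypts. The cause of that gap between the pairs was not tested. The fatty acid transporters did not move together: Slc16a1, a carrier of lactate and butyrate, differed by -0.56, while Slc5a8, the sodium-coupled carrier of short-chain fatty acids, read 13.60 in GFPlow and 13.55 in GFPhigh. With a difference of 0.05, Slc5a8 was the only measured absorptive gene above 0.

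Water and acid-base genes of the absorptive class had lower values in GFPlow. Atp12a, the colonic proton-potassium pump, read 11.80 in GFPlow and 13.03 in GFPhigh (-1.23, 2.34-fold). The water channel Aqp8 of colonocytes read 12.41 in GFPlow and 13.38 in GFPhigh (-0.97). Car4, a carbonic anhydrase anchored at the lumen-facing membrane, read 14.00 in GFPlow and 14.95 in GFPhigh (-0.95, and -1.09 in its second probe set), and the cytosolic Car1 read 15.12 in GFPlow and 15.66 in GFPhigh (-0.54). All 4 were below 0.

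**Figure D1:**
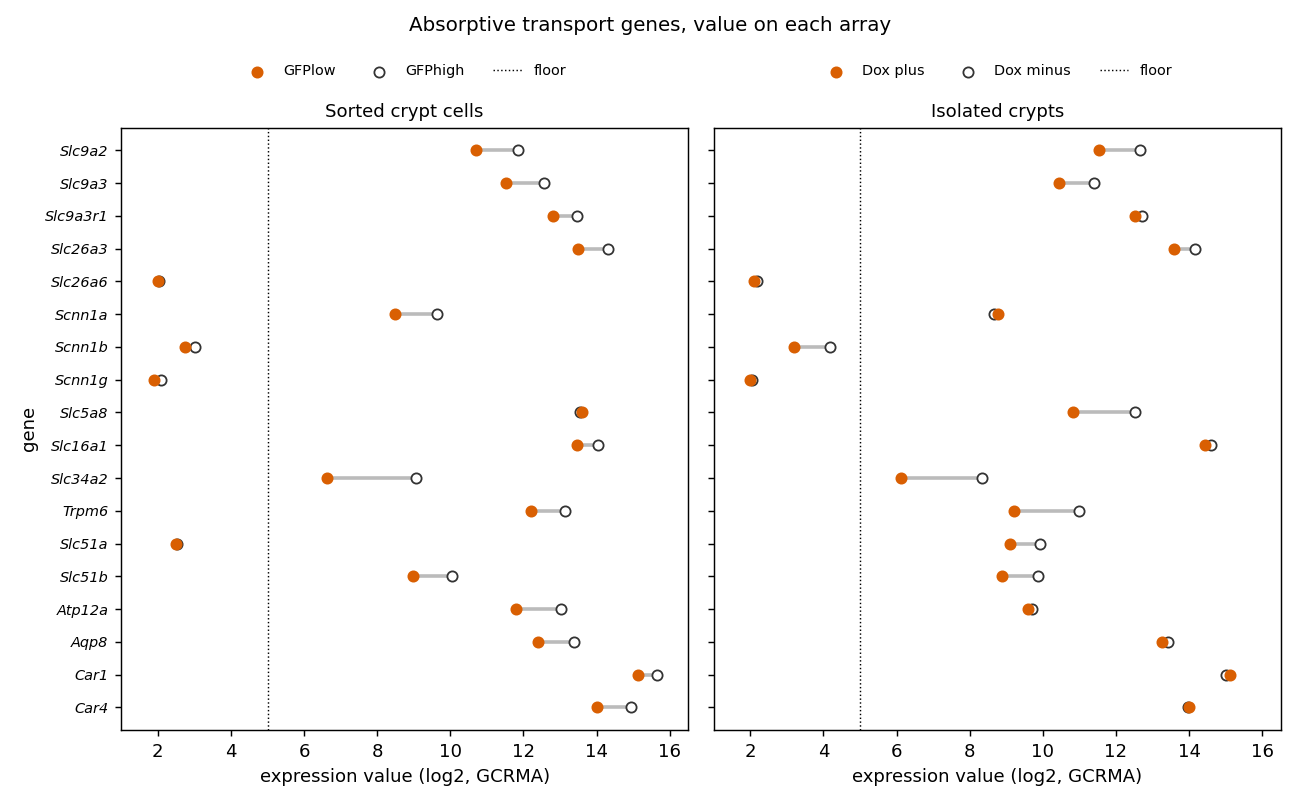
Each row is an absorptive gene and each point its log2 value on 1 array, with GFPlow (filled) and GFPhigh (open) on the left, Dox plus (filled) and Dox minus (open) on the right, and the floor of 5 dotted. In the sorted cells the filled point lies left of the open one for 13 of 14 measured genes, and in the crypts for 12 of 15.

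Genes of chloride and bicarbonate secretion went both ways, with 3 of 5 higher in GFPlow. Slc12a2, the basolateral sodium-potassium-chloride cotransporter that loads the cell with chloride, read 13.65 in GFPlow and 12.25 in GFPhigh (1.40, 2.64-fold), and its 3 probe sets ran from 1.40 to 2.69. Cftr, the cAMP-gated chloride channel mutated in cystic fibrosis, read 11.36 in GFPlow and 10.50 in GFPhigh (0.86), with its other probe set under the floor in the sorted cells. Best2, a channel linked to bicarbonate secretion by goblet cells in mouse colon, read 11.85 in GFPlow and 9.77 in GFPhigh (2.08, 4.23-fold). The other 2 were lower: Slc4a4, the basolateral sodium-bicarbonate cotransporter, read 11.33 in GFPlow and 12.43 in GFPhigh (-1.11, with its 4 measured probe sets from -1.11 to -0.92), and Ano1, the calcium-activated chloride channel, read 12.35 in GFPlow and 13.16 in GFPhigh (-0.82, and -0.94 in its second probe set).

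The potassium channels that sustain secretion were mostly higher in GFPlow. Kcnma1, the large-conductance channel that secretes potassium into the lumen, read 8.03 in GFPlow and 5.45 in GFPhigh (2.58, 5.98-fold), the largest difference of the secretory class, measured by 1 of its 5 probe sets. Kcnn4, the calcium-activated channel of intermediate conductance, read 10.74 in GFPlow and 9.18 in GFPhigh (1.56, and 1.58 in its second probe set). Kcnq1 and Kcne3 form the cAMP-activated basolateral channel of colonic crypts. Kcnq1, the pore, read 9.35 in GFPlow and 8.36 in GFPhigh (0.98), and Kcne3, its accessory subunit, 12.81 in GFPlow and 11.80 in GFPhigh (1.01), so both partners differed by about the same amount. Kcnk5, a background potassium channel known from bicarbonate handling in mouse kidney, was the exception at 9.88 in GFPlow and 10.81 in GFPhigh (-0.93, and -2.01 or beyond in its second probe set, where GFPlow was under the floor). The 3 secretory genes below 0 in the sorted cells were therefore Slc4a4, Kcnk5 and Ano1.

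**Figure D2:**
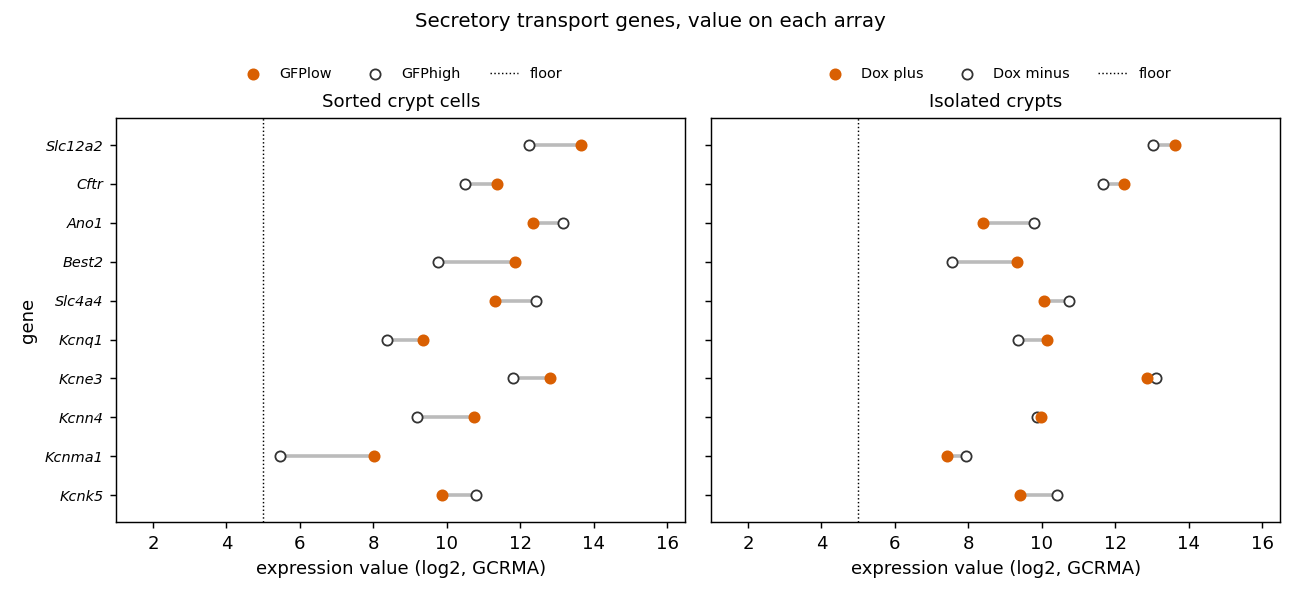
Each row is a secretory gene and each point its log2 value on 1 array, with GFPlow or Dox plus filled, GFPhigh or Dox minus open, and the floor of 5 dotted. In the sorted cells 7 of 10 filled points lie to the right, most widely for Kcnma1 and Best2, and in the crypts 5 of 10.

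Markers of other cells moved alongside in the sorted pair. Colonocyte genes that are not transporters were below 0 for 22 of 24 measured (median -0.70), and their summed level was 18.45 in GFPlow and 18.86 in GFPhigh on the log2 scale. Goblet cell genes had a median of 1.12 with 6 of 12 at least 2-fold higher and 0 lower, and a summed level of 18.13 in GFPlow and 17.57 in GFPhigh. Of 13 measured proliferation genes 12 were at least 2-fold higher, with a summed level of 14.77 in GFPlow and 13.18 in GFPhigh. Wnt target genes were at least 2-fold higher in 6 of 9 measured and lower in 0 (median 1.25), with a summed level of 12.18 in GFPlow and 11.47 in GFPhigh. Enteroendocrine genes, of the hormone cells, lay as low as the absorptive class, with 4 of 8 measured at least 2-fold lower, 7 below 0 and a median of -0.96, and their summed level was 12.33 in GFPlow and 13.44 in GFPhigh. Interferon-stimulated genes were at least 2-fold lower in 2 of 10 measured, leukocyte genes at least 2-fold higher in 1 of 5, and the measured fibroblast and tuft cell genes, 2 and 1, had 0 past 2-fold. Their part in the transport differences was not tested. Smooth muscle, endothelial and red cell markers, which matter for Kcnma1 and Aqp1, were all under the floor. The brightest of the 7, 8 and 4 with a probe set read at most 3.53, 3.49 and 4.09 on any array. Interstitial cells of Cajal, which bear on Ano1, were not covered, since their listed marker Etv1 had no probe set with a single gene symbol.

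Among the shared genes the accessory subunits of the sodium pump went opposite ways. Fxyd3 and Fxyd4 encode small membrane proteins that tune the pump. Fxyd3 read 11.77 in GFPlow and 9.75 in GFPhigh (2.02, 4.06-fold), whereas Fxyd4, known in rodents as a corticosteroid-induced factor of distal colon, read 9.85 in GFPlow and 11.61 in GFPhigh (-1.76, 3.38-fold). The β subunits of the pump differed little: Atp1b1 by -0.33, with probe sets from -0.33 to 0.08, and Atp1b3 by 0.05.

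Aqp1, a water channel best known from red cells, endothelium and kidney, had the largest difference of all members, at 8.47 in GFPlow and 5.26 in GFPhigh (3.21, 9.26-fold). Of all measured genes 99.8% had a lower difference. The basolateral water channel Aqp4 read 13.62 in GFPlow and 13.78 in GFPhigh (-0.15), and its 3 probe sets disagreed in sign, from -0.77 to 0.28. The cytosolic carbonic anhydrase Car2 differed by 0.08, the potassium channel Kcnk1 by 0.37, the potassium-chloride cotransporter Slc12a7 by -0.62 and the basolateral anion exchanger Slc4a2 by -0.51. The lactate carrier Slc16a3 was under the floor in both sorted populations, at 2.80 in GFPlow and 2.85 in GFPhigh.

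Genes of aldosterone signalling were lower or close to even in GFPlow. Sgk1, the kinase that keeps sodium channels at the membrane and is itself induced by steroids, read 12.25 in GFPlow and 13.57 in GFPhigh (-1.32, 2.49-fold). Nr3c2, the mineralocorticoid receptor, read 10.93 in GFPlow and 11.53 in GFPhigh (-0.61). Nedd4l, the ubiquitin ligase that removes sodium channels and is inhibited by the kinase, read 11.49 in GFPlow and 11.84 in GFPhigh (-0.35, with probe sets from -0.94 to -0.35). Hsd11b2, the enzyme that shields the receptor from cortisol-like steroids, read 12.90 in GFPlow and 12.71 in GFPhigh (0.18). Sgk1 was the only 1 of the 4 past 2-fold.

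**Figure D3:**
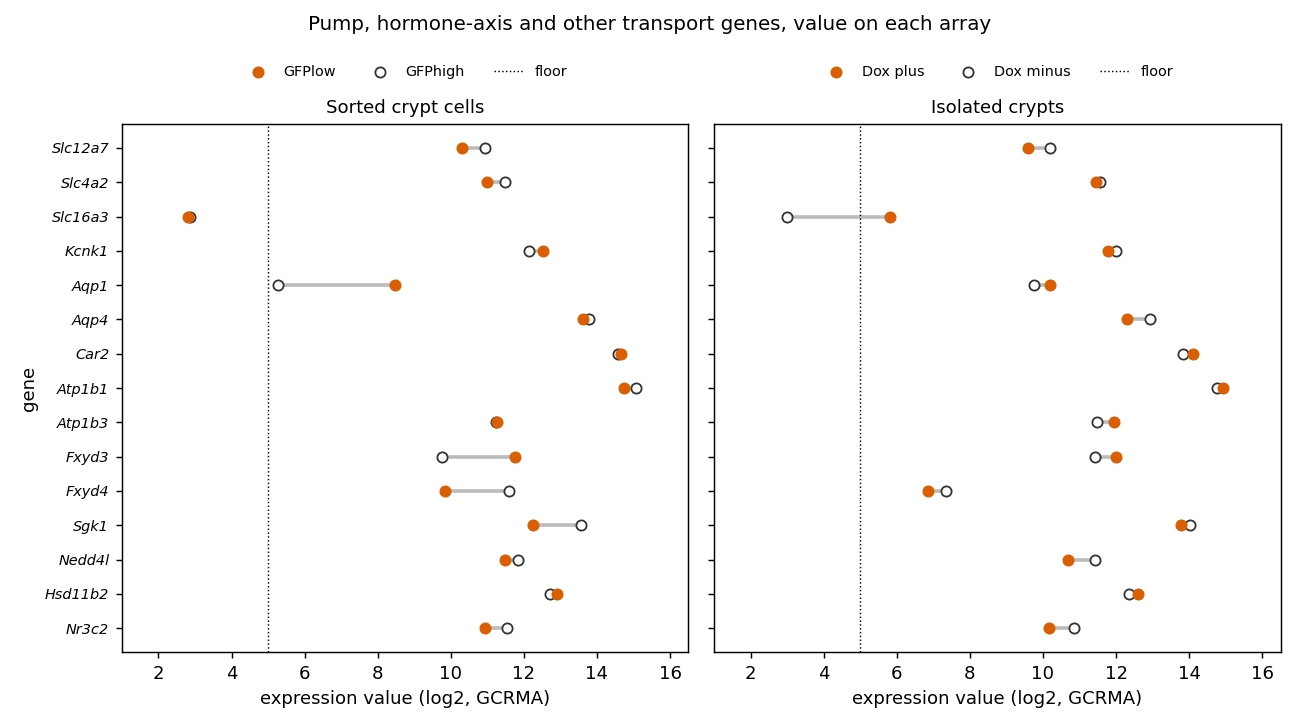
Each row is a gene of the sodium pump, the aldosterone axis or another shared function, and each point its log2 value on 1 array, with GFPlow or Dox plus filled, GFPhigh or Dox minus open, and the floor of 5 dotted. Aqp1 and Fxyd3 show the widest gaps in favour of GFPlow, Fxyd4 and Sgk1 in favour of GFPhigh, and in the crypts every pair of points that clears the floor lies within a 2-fold span.

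Crypts with induced β-catenin had lower values of some absorptive genes and no common direction of secretory ones. The median of the 15 measured absorptive genes was -0.57, with 4 of them at least 2-fold lower in Dox plus than in Dox minus, 0 higher and 12 below 0. Of 10 secretory genes 1 was at least 2-fold higher and 1 lower, with a median of -0.07, and the 15 shared genes had 0 past 2-fold in either direction and a median of -0.12. Among all 9537 measured genes 5.35% were at least 2-fold lower, 6.93% at least 2-fold higher, 45.0% below 0 and 55.0% above, with a median of 0.06. The absorptive minus the secretory median was -0.50, and the absorptive gene had the lower difference in 103 of 150 pairings (68.7%). Without the probe sets whose suffix (_a_at, _s_at, _x_at) marks possible matches to more than 1 transcript, this gap was -0.014, since Cftr, Kcne3 and Kcnn4 then had no probe set and Ano1 its second one only.

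Of the 4 absorptive genes past 2-fold, 3 serve solute uptake. Slc34a2 read 6.11 in Dox plus, against 8.34 in Dox minus (-2.23, 4.70-fold). Trpm6 read 9.20 in Dox plus, against 10.98 in Dox minus (-1.78, 3.43-fold, and -1.76 in its second probe set). Slc5a8, which was level in the sorted cells, had 10.83 in Dox plus crypts and 12.53 in Dox minus crypts (-1.70, 3.25-fold). Both partners of the bile acid exporter were lower by similar amounts. Slc51a stood at 9.10 in Dox plus, against 9.92 in Dox minus (-0.82), and Slc51b at 8.88 in Dox plus, against 9.87 in Dox minus (-0.99). The lactate and butyrate carrier Slc16a1 differed by -0.18. All 6 genes of solute uptake were thus below 0 (median -1.35).

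The exchangers followed at smaller size. Slc9a2 read 11.54 in Dox plus, against 12.65 in Dox minus (-1.11, 2.15-fold). Slc9a3 read 10.44 in Dox plus, against 11.39 in Dox minus (-0.95). For the chloride-bicarbonate exchanger Slc26a3 the values were 13.60 in Dox plus, against 14.17 in Dox minus (-0.57), and its 3 measured probe sets ran from -0.57 to -0.44, while the scaffold gene Slc9a3r1 differed by -0.18. Water, acid-base and sodium channel genes were nearly even. Aqp8 read 13.26 in Dox plus, against 13.44 in Dox minus (-0.18), and the proton-potassium pump gene Atp12a 9.59 in Dox plus, against 9.70 in Dox minus (-0.12). Of the carbonic anhydrases, Car4 had 14.00 in Dox plus, against 13.98 in Dox minus (0.01, and -0.02 in its second probe set) and Car1 had 15.12 in Dox plus, against 15.00 in Dox minus (0.12). Scnn1a read 8.76 in Dox plus, against 8.66 in Dox minus (0.10), which became -0.0099 with quantile normalization. The absorptive genes thus ran from -2.23 (Slc34a2) to 0.12 (Car1) in the crypts, and from -2.44 to 0.05 in the sorted cells.

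Of the secretory genes Best2 was the only one at least 2-fold higher, at 9.31 in Dox plus and 7.56 in Dox minus (1.76, 3.38-fold). In the same pair 10 of 12 goblet cell genes were below 0 (median -0.44, summed level 17.35 in Dox plus and 17.87 in Dox minus). The part of goblet cells in the Best2 difference was not tested. Ano1 was the only one at least 2-fold lower, at 8.39 in Dox plus, against 9.79 in Dox minus (-1.40, 2.64-fold, and -1.16 in its second probe set). Slc12a2 read 13.62 in Dox plus, against 13.03 in Dox minus (0.59), but its 3 probe sets ran from 0.59 to 1.54 and averaged 1.04. Cftr read 12.25 in Dox plus, against 11.66 in Dox minus (0.59, and 1.50 in its second probe set), and Kcnq1 read 10.15 in Dox plus, against 9.36 in Dox minus (0.78). Best2, Slc12a2, Cftr and Kcnq1 were thus above 0, the last 3 under 2-fold in their brightest probe sets.

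The other 4 potassium channel genes were near or below 0, as was the bicarbonate cotransporter gene Slc4a4. Kcne3 read 12.88 in Dox plus, against 13.12 in Dox minus (-0.25), so the partners of the crypt channel differed in sign. Kcnn4 read 9.97 in Dox plus, against 9.88 in Dox minus (0.10) and Kcnma1 7.43 in Dox plus, against 7.94 in Dox minus (-0.51). Kcnk5 read 9.42 in Dox plus, against 10.41 in Dox minus (-0.99) and Slc4a4 10.06 in Dox plus, against 10.73 in Dox minus (-0.67, with probe sets from -0.67 to -0.13), again below 0 like Ano1.

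Shared genes that cleared the floor in both kinds of crypt ran from -0.74 to 0.55. Nedd4l read 10.69 in Dox plus, against 11.43 in Dox minus (-0.74, with its 3 measured probe sets from -1.44 to -0.74), and Nr3c2 10.16 in Dox plus, against 10.86 in Dox minus (-0.70). Sgk1 read 13.79 in Dox plus, against 14.02 in Dox minus (-0.23) and Hsd11b2 12.61 in Dox plus, against 12.35 in Dox minus (0.25). Fxyd3 read 11.99 in Dox plus, against 11.43 in Dox minus (0.55) and Fxyd4 6.87 in Dox plus, against 7.34 in Dox minus (-0.48), the same signs as in the sorted cells at a smaller size. Aqp1 read 10.19 in Dox plus, against 9.76 in Dox minus (0.44). Atp1b1 and Atp1b3 differed by 0.17 and 0.46, Aqp4 by -0.63, Slc12a7 by -0.60, Kcnk1 by -0.21, with probe sets from -0.21 to 0.31, Slc4a2 by -0.12 and Car2 by 0.29. Slc16a3, at 5.82 in Dox plus and 2.99 in Dox minus, has only a bound of at least 0.82 because Dox minus lay under the floor, and the bound was 1.82 with a floor of 4.

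Marker lists of other cells and states went both ways in the crypts. Of 10 measured enteroendocrine genes 9 lay at least 2-fold lower in Dox plus and 1, Sct, was at least 2-fold higher (median -2.25), with a summed level of 12.06 in Dox plus and 13.88 in Dox minus. Colonocyte genes that are not transporters were below 0 for 23 of 25 (median -0.37), 1 of them at least 2-fold lower, with a summed level of 18.12 in Dox plus and 18.47 in Dox minus. Wnt target genes were at least 2-fold higher in 6 of 9 measured and had a summed level of 14.49 in Dox plus and 13.28 in Dox minus. Interferon-stimulated genes were at least 2-fold lower in all 10 measured, with a summed level of 11.09 in Dox plus and 15.23 in Dox minus. Leukocyte genes were at least 2-fold lower in 2 of 8 measured, and the 5 measured tuft cell genes had 0 past 2-fold. Of 13 proliferation genes 2 were at least 2-fold lower and 0 higher, with 8 below 0 and 5 above (median -0.34). The summed level of the proliferation genes was 14.50 in Dox plus and 14.26 in Dox minus. Of the 8 fibroblast genes 6, the collagen genes among them, were under the floor on all arrays, and of the 2 measured, Vim had 6.64 in Dox plus, against 8.43 in Dox minus (-1.78). The part of these genes in the transport differences was not tested.

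**Figure D4:**
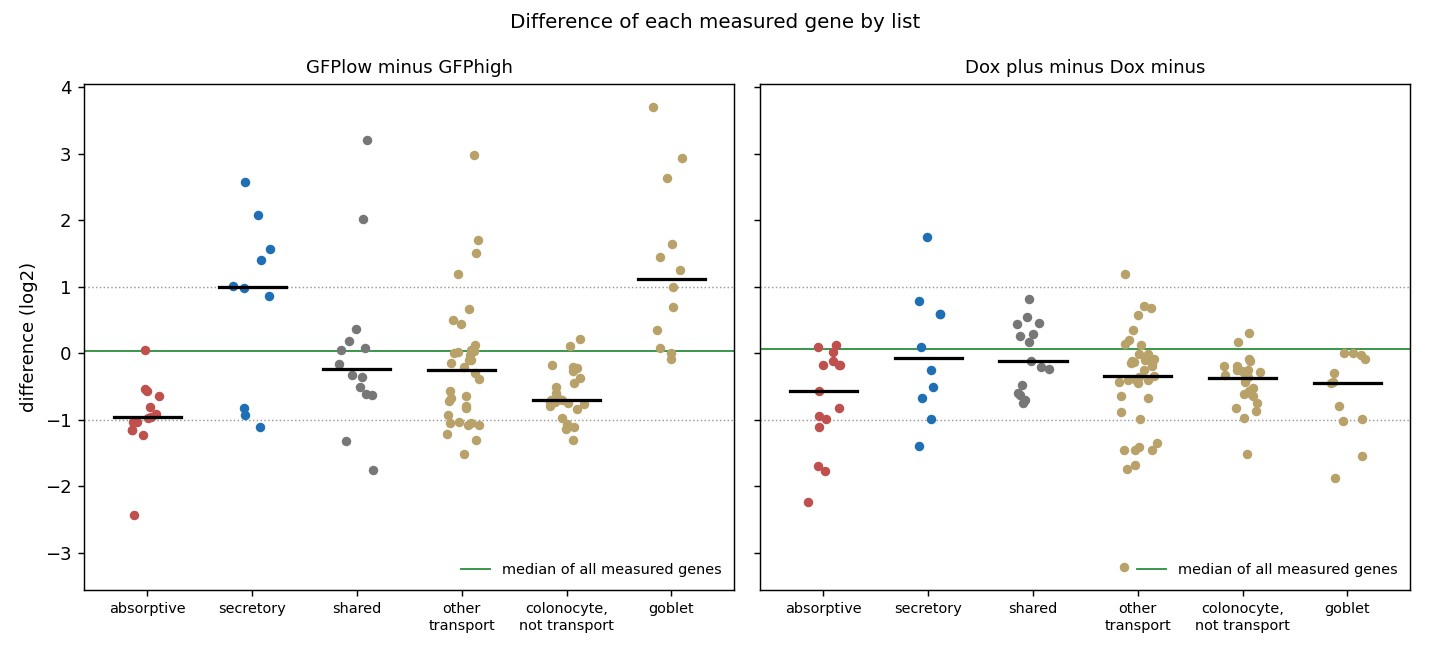
Each point is the difference of 1 measured gene on the log2 scale, GFPlow minus GFPhigh on the left and Dox plus minus Dox minus on the right, with black bars at list medians, the green line at the median of all measured genes and dotted lines at 2-fold. In the sorted cells the absorptive and secretory medians lie at -0.96 and 0.995, and in the crypts at -0.57 and -0.07.

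Set side by side, the comparisons share no array. Of 38 members measured in both, 30 had the same sign in both (78.9%), 10 above 0 and 20 below, against 66.1% of the 9023 genes measured in both. At least 2-fold lower in both were Slc9a2 and Slc34a2 (5.26% of the 38, against 0.798% of all genes measured in both). Best2 was at least 2-fold higher in both (2.63% of the 38, against 2.03% of all genes, a share near the background). Across the 38 members the differences correlated at Pearson r = 0.60 and Spearman rho = 0.57, against 0.29 and 0.39 across all genes measured in both, given as a description since genes are not independent replicates. The 8 members of opposite sign were Slc5a8, Kcne3, Kcnma1 and Kcnk1, higher in GFPlow and lower in Dox plus, and Scnn1a, Car1, Car4 and Atp1b1, the other way round. Their Dox values were small except for Slc5a8 (-1.70) and Kcnma1 (-0.51).

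**Figure D5:**
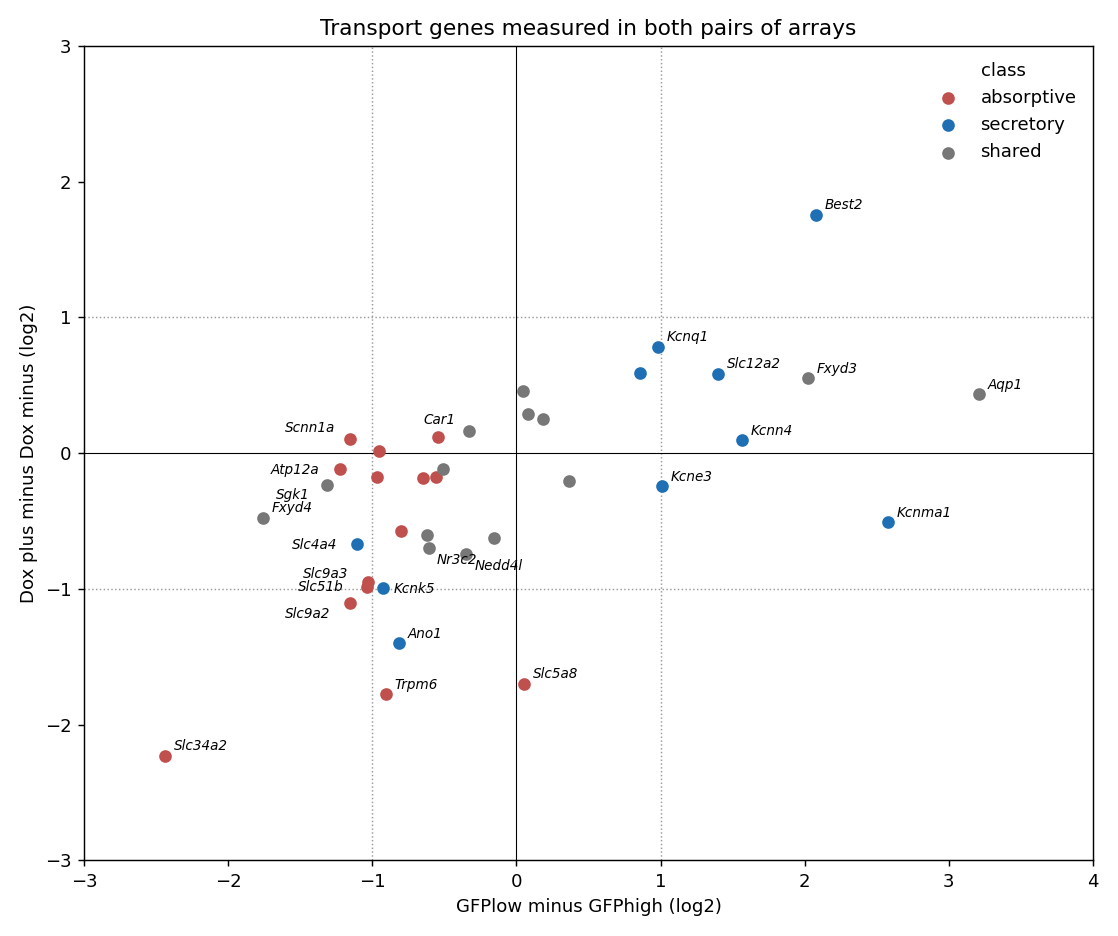
Each point is a member measured in both pairs, with GFPlow minus GFPhigh across and Dox plus minus Dox minus up, both in log2, coloured by class, with names on those past 2-fold or leading their class and dotted lines at 2-fold. Best2 stands alone in the upper right corner past 2-fold, Slc34a2 and Slc9a2 in the lower left, and Kcnma1 and Aqp1 lie far to the right with Dox differences of -0.51 and 0.44.

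Transport genes outside the 44 were read from a list of 76 others, of which 68 had a probe set. In the sorted cells 34 were measured, with a median of -0.25. In GFPlow 4 were at least 2-fold higher (11.8%) and 8 at least 2-fold lower (23.5%). Of all measured genes 8.81% were higher and 4.30% lower by this threshold, so the higher share is near the background. Higher were the cotransporter family member Slc12a8 (2.98), the potassium channel Kcnk6 (1.51), the lipid scramblase Ano6 (1.19) and the carbonic anhydrase-related Car8 (at least 1.71, with GFPhigh under the floor). Lower were Clca4b (-1.52), Clic5 (-1.31), the chloride channel Clcn2 (-1.21), the calcium channel Trpv6 (-1.09), the phosphate carrier Slc20a1 (-1.07), the peptide transporter Slc15a1 (-1.05), the calcium pump Atp2b1 (-1.05) and the amino acid transporter Slc6a14 (-1.04).

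The same list had 37 measured genes in the crypts and a median of -0.35. In Dox plus 1 was at least 2-fold higher (2.70%) and 8 at least 2-fold lower (21.6%), against 6.93% and 5.35% of all measured genes. Slc15a1 differed most, at 7.57 in Dox plus and 10.78 in Dox minus (-3.21). Clic6 (-1.67), Slc12a8 (-1.46), Slc20a1 (-1.46), Kcnk6 (-1.46), the bile acid uptake gene Slc10a2, best known from the ileum (-1.40) and Slc6a14 (-1.34) were also lower, as was the scaffold Slc9a3r2 (-1.74 or beyond, with Dox plus under the floor). Trpv6 read 11.46 in Dox plus, against 10.28 in Dox minus. Slc12a8 and Kcnk6 were thus past 2-fold in opposite directions in the 2 comparisons, and so was Trpv6.

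Regulators of transport were taken from a list of 32, with 31 on the array. In the sorted cells 24 were measured, with a median of -0.10. In GFPlow 3 were at least 2-fold higher (12.5%) and 1 at least 2-fold lower (4.17%). Of all measured genes 8.81% were higher and 4.30% lower by this threshold, so both shares are near the background. Higher were the neuropeptide Y receptor Npy1r (at least 2.79), the kinase Stk39 (1.73), which switches on the chloride-loading cotransporter, and Prss8 (1.16), a protease that activates the sodium channel, and lower was the kinase Sgk2 (-1.46). In the crypts 25 were measured, with a median of -0.30. In Dox plus 1 was at least 2-fold higher (4%) and 4 at least 2-fold lower (16%). Of all genes measured in the crypts 6.93% were higher and 5.35% lower by this threshold. The higher share was thus under the background and the lower share above it. The kinase Wnk4, which acts upstream of Stk39, read 10.40 in Dox plus, against 8.53 in Dox minus (1.87). Prkg2, the kinase that relays guanylin signals to Cftr, read 9.92 in Dox plus, against 11.83 in Dox minus (-1.91), Ptger4, a prostaglandin receptor, differed by -1.17 and Sgk2 by -1.17, and Slc9a3r2, which is on both lists, was the fourth. Prkg2 was under the floor in both sorted populations, as Slc10a2 was.

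Promoter windows from RefSeq (GRCm38.p6, 250 bases before to 50 after each start) were found for 33 of the 44 genes. They were searched on both strands for ATCAAAG, a binding motif of the TCF/LEF factors through which β-catenin acts. It was present in 2 of 43 windows of the members (4.65%), against 3.73% of all 32851 windows in the table, a share near the background. Both windows with a match are shown, with the match in capitals. That of Fxyd3 (2.02 in the sorted cells) lies at chr7:31076648-31076947 on the minus strand. That of Sgk1 (-1.32 in the sorted cells), 1 of several starts, lies at chr10:21978422-21978721 on the plus strand. Any bearing of the match on expression was not tested. In both the match lies on the opposite strand and is printed as its reverse complement, at bases 45 to 51 and 72 to 78 of the window. In Dox plus these genes differed by 0.55 and -0.23.
Fxyd3: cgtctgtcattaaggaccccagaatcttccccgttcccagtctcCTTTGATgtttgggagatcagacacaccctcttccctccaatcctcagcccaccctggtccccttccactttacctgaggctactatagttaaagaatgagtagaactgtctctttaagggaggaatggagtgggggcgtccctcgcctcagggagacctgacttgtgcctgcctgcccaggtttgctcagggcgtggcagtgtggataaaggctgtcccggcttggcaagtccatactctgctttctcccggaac
Sgk1: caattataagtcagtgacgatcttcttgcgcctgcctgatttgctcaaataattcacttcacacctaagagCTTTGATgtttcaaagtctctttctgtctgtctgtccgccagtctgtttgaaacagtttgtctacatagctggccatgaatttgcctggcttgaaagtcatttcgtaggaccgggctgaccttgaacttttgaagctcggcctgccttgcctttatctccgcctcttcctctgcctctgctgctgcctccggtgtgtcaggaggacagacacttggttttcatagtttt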

How the data were processed

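Per the labels' protocols, total RNA was extracted with Trizol and hybridised as biotin-labelled cRNA on 4 arrays. For each of 45101 probe sets the authors deposited a log2 value per array. The submitters' processing notes name GCRMA, which subtracts a background modelled from probe sequence and summarises the probes. The sources used here give neither its version nor the arrays it was run on together. Low values are set by that model and carry little information on abundance.

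From the deposited values, differences were taken within a pair only, with a floor of 5 and a 2-fold threshold, on the highest-mean probe set of each gene among 34958 with 1 symbol in the platform annotation. Python 3.11.15, pandas 2.3.3 and statsmodels 0.14.6 were used. The calculations were checked on simulated data with differences past 2-fold planted only in genes well above the floor, so the check covers the code and not genes near the floor. No test was run, since each group was 1 array, and this number limits the precision of every value. The summed level of a marker list is log2 of the summed linear values of its genes.

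All members, and genes of the other transport lists past 2-fold, are named. Members past 2-fold, and the 2 furthest in each direction in each class, are given with all 4 values. The members, classes and lists were chosen with earlier results of these data known. Alternatives were floors of 4 and 6, no floor, quantile normalization, loess (span 0.4), the mean of probe sets, dropping probe sets with the suffixes _a_at, _s_at and _x_at, narrower and wider classes and a 3-fold threshold. A loess fitted only on probe sets above the floor was added after the fit on all of them had been seen.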

Additional observations from a re-analysis of the deposited data

How the results depend on the processing

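No paired analysis was possible because each group holds 1 array. Class medians were taken as moved beyond 0.28 on the log2 scale, the median SD between probe sets of a gene, and counts beyond 1.5 times. In the sorted cells the class medians kept their direction under every alternative run, and a 3-fold threshold left 4 members higher in GFPlow and 2 lower, against 7 and 9. In the crypts 1 member was at least 2-fold higher and 5 lower. The higher count was 2 when the floor was 4 or left out, and 3 with the mean of probe sets. The lower count was 8 with either loess fit and 3 at 3-fold. The secretory median turned to 0.10 with narrower classes and was -0.51 without the suffixes _a_at, _s_at and _x_at, where the absorptive minus secretory gap was -0.014, and the shared median turned to 0.052 with the mean of probe sets. Scnn1a turned to -0.0099 with quantile normalization and -0.034 with the loess fitted above the floor, chosen after seeing the data, against 0.055 with the planned loess. The secretory direction in the crypts is therefore not settled. With the mean of probe sets, Slc9a3 was -0.68 in the sorted cells, under 2-fold. Kcnk5 (-1.47), Trpm6 (-1.19), Slc26a3 and Car4 passed 2-fold there, and the lower count was 12, against 9. In the crypts Nedd4l (-1.17), Slc12a2 (1.04) and Cftr passed 2-fold under the same setting. Without the suffixed probe sets Nedd4l was -1.44 in the crypts. Kcnk5 and Slc51b passed 2-fold in the crypts with quantile normalization and with both loess fits, and Slc9a3 with both loess fits. With a floor of 6 Aqp1 was 2.47 and Kcnma1 2.03 in the sorted cells, and Slc16a3 was 1.82 with a floor of 4 and 2.83 with none in the crypts. Over all genes, the planned loess gave 627 higher and 539 lower in Dox plus (53.8% higher) and the one fitted above the floor 526 and 608 (46.4%), against 661 and 510 as deposited (56.4%). The cause of these shifts was not tested. The floor limits what can be said of Scnn1b, Scnn1g, Slc26a6 and Slc16a3, which lie in the range where the background model sets the value.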
